A study of Mus musculus with 28 samples.

Results

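The genes described here are 8 cell surface proteins by which spermatogonia are recognised or sorted: Thy1, Itga6, Itgb1, Cdh1, Epcam, Mcam, Cd9 and Tspan8. They were taken by name from both deposited tables of read counts, and all 8 were found among 43280 listed features and passed the expression filter that left 17519 genes for testing. The data are polyA RNA sequencing of germ cells from Stra8 knockout (KO) and wild-type (WT) mouse testes, with 14 groups of 2 libraries and 28 libraries in all. Per the labels, every mouse, KO and WT alike, descended from a cross of C57BL/6 with 129s4/SvJae and received WIN 18,446, an inhibitor of retinoic acid synthesis, for 7 days. The 0 h groups were collected then; the other KO and WT groups were given retinoic acid and collected 12, 18, 48, 72, 96 or 120 h later. In every group the cells were sorted for a PIWIL2-eGFP reporter, so the libraries hold germ cells chosen by that reporter and not by any of the 8 surface proteins. The sources used here give neither the ages of the mice, nor the part of Stra8 that was removed, nor the number of animals per library. The labels do not say that both libraries of a group came from separate animals, so the p-values rest on the spread between these samples alone, and that spread may be technical.

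The proteins belong to several families. Integrins are paired receptors for the extracellular matrix: ITGA6 (alpha-6) pairs with ITGB1 (beta-1) to form a receptor for laminin in the basement membrane on which spermatogonia rest. CDH1 (E-cadherin) holds like cells together through calcium-dependent contacts, and EPCAM is an epithelial adhesion protein that spermatogonia also carry. THY1 and MCAM belong to the immunoglobulin superfamily; THY1 is a small lipid-anchored protein also found on stromal and lymphoid cells, and MCAM (CD146) is also found on endothelium. CD9 and TSPAN8 are tetraspanins, which gather integrins and other partners in the membrane. In mouse testis, antibodies to these proteins are used to enrich stem or undifferentiated spermatogonia. Retinoic acid drives undifferentiated spermatogonia into differentiation, with induction of the receptor gene Kit and of Stra8, and Stra8 is needed for normal entry into meiosis.

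Mitochondrial genes held 4.56% to 8.55% (replicate 1) and 4.73% to 8.44% (replicate 2) of the gene counts in KO libraries. In WT they held 1.98% to 3.06% (replicate 1) and 3.21% to 6.79% (replicate 2), so every KO library lay above every WT library of replicate 1. The part of this in the genotype differences was not tested. Total gene counts were 914126 to 9517360 in KO libraries and 5757921 to 10147341 in WT libraries. The lowest totals were in replicate 2 of KO at 72, 96 and 120 h (1079696, 914126 and 1031189 reads), called here the 3 shallow KO libraries. Values are CPM, the read count of a gene scaled to a common library total, with replicate 1 given before replicate 2. Stra8 itself was lower in both KO libraries than in both WT libraries at each of the 7 times. The highest Stra8 value in KO was 62.1 CPM in replicate 1 at 48 h, where WT had 97.0 and 199 CPM. Kit, induced by retinoic acid, reached 846 and 1236 CPM in KO and 1392 and 992 CPM in WT at 12 h. Piwil2, the gene of the sorting reporter, had 2638 and 2192 CPM in KO and 1438 and 1052 CPM in WT at 120 h. The log2 difference there was 0.82 ± 0.21 (SE, adjusted p = 0.0110, edgeR), and no earlier time had an adjusted p under 0.05. In WT, Piwil2 changed by -0.70 ± 0.21 from 0 h to 96 h (adjusted p = 0.0160, edgeR). Its part in the late values of the 8 genes was not tested. Summed levels of 7 germ cell markers were 4010 to 4975 CPM in KO and 2631 to 5360 CPM in WT. At 72, 96 and 120 h both WT libraries lay below both KO libraries in this sum. At 120 h it was 3095 and 2991 CPM in WT, against 4597 and 4405 CPM in KO. Piwil2, given above, is among these 7 markers and had the highest median of them, 2078 CPM over all libraries. At 72 h Piwil2 alone had 2450 and 2030 CPM in KO and 1343 and 1327 CPM in WT. At 96 h Piwil2 had 2078 and 1756 CPM in KO and 1205 and 1132 CPM in WT. The gap in the sum thus holds the Piwil2 difference, and the sum without Piwil2 was not compared. The part of this gap in the late values of the 8 genes was not tested. Summed over 13 Sertoli cell markers, the level was 66.6 to 935 CPM in KO (highest in replicate 2 at 72 h, a shallow library) and 44.6 to 258 CPM in WT, with at most 1 marker at 0 in any library. Clu gave the highest values of that list, up to 631 CPM in KO and 170.4 CPM in WT. The sum of 12 peritubular and stromal markers was 139.2 to 502 CPM in KO and 74.0 to 383 CPM in WT, and Col1a1 alone reached 403 CPM in KO and 281 CPM in WT. Endothelial markers (10 genes) summed to 33.8 to 61.5 CPM in KO and 20.2 to 59.1 CPM in WT. The 8 Leydig cell markers summed to 5.04 to 15.7 CPM in KO and 4.93 to 9.49 CPM in WT, and Insl3 was at 0 in all 28 libraries. The 15 leukocyte markers summed to 5.47 to 12.97 CPM in KO and 4.66 to 13.7 CPM in WT. Erythroid (6 genes) and spermatid (6 genes) markers summed to at most 6.51 and 5.63 CPM in KO and 5.73 and 4.42 CPM in WT. In bulk RNA, fewer cells of a type and less RNA per cell cannot be told apart.

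**Figure D1:**
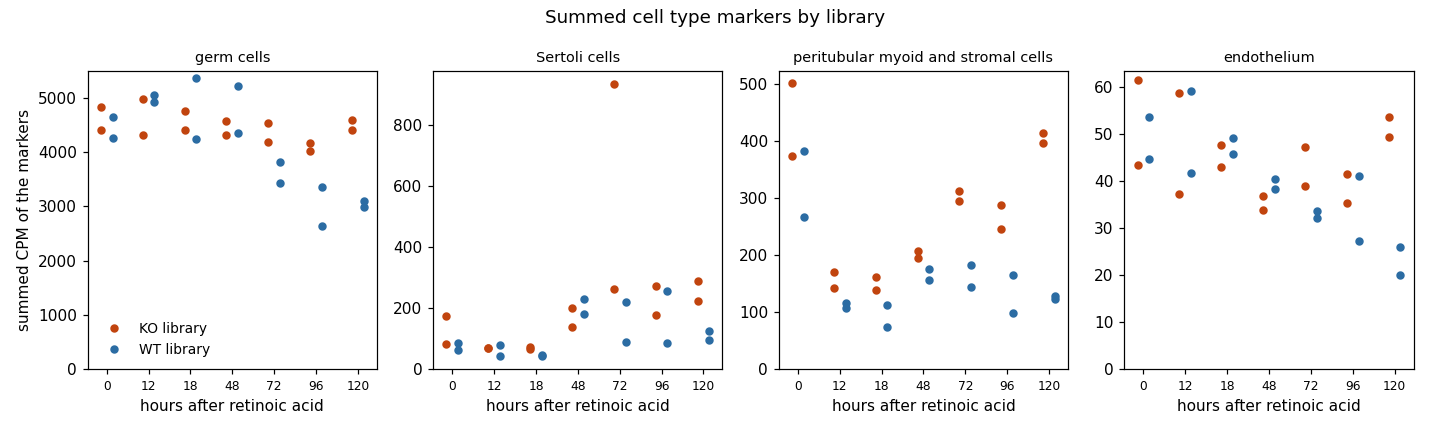
Summed CPM of the germ cell, Sertoli cell, peritubular and stromal, and endothelial markers in each library (points, KO left of WT) against hours after retinoic acid. The peritubular and stromal sum at 120 h was 415 and 397 CPM in KO, against 128 and 123 CPM in WT.

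Per kb of merged exons, the scale on which levels of different genes can be set side by side, Mcam was the highest of the 8 genes and Thy1 the lowest in both genotypes. Mcam averaged 151 ± 30.8 CPM per kb in KO and 132 ± 24.9 CPM per kb in WT (SD, n = 14 each, over all times). Itgb1 followed, at 56.6 ± 10.6 CPM per kb in KO and 57.4 ± 9.79 in WT. Epcam averaged 42.1 ± 23.3 CPM per kb in KO and 48.3 ± 31.5 in WT, and Cd9 averaged 35.6 ± 14.5 in KO and 27.2 ± 5.68 in WT. These last levels lie within the wide Epcam SD of each other, and so do those of Epcam and Itgb1. By the narrower SD of each pair, Epcam and Cd9 in WT and Epcam and Itgb1 in KO lie further apart. Cdh1 averaged 13.02 ± 3.33 CPM per kb in KO and 7.35 ± 3.203 in WT, and Itga6 averaged 10.6 ± 2.70 in KO and 9.66 ± 2.93 in WT, so that their order turned between the genotypes within their spread. Tspan8 averaged 3.10 ± 1.62 CPM per kb in KO and 2.48 ± 1.90 in WT. Thy1 averaged 1.27 ± 0.611 CPM per kb in KO and 0.781 ± 0.425 in WT, and its spread overlapped that of Tspan8. The low level of Thy1 rests on 4 to 44 reads per KO library and 6 to 56 reads per WT library, and that of Tspan8 on 5 to 60 reads in KO and 5 to 91 reads in WT. Thy1, a widely used sorting marker of rodent spermatogonial stem cells, was thus measured with far fewer reads than Mcam, which had 397 to 5147 reads in KO and 2289 to 5174 reads in WT.

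**Figure D2:**
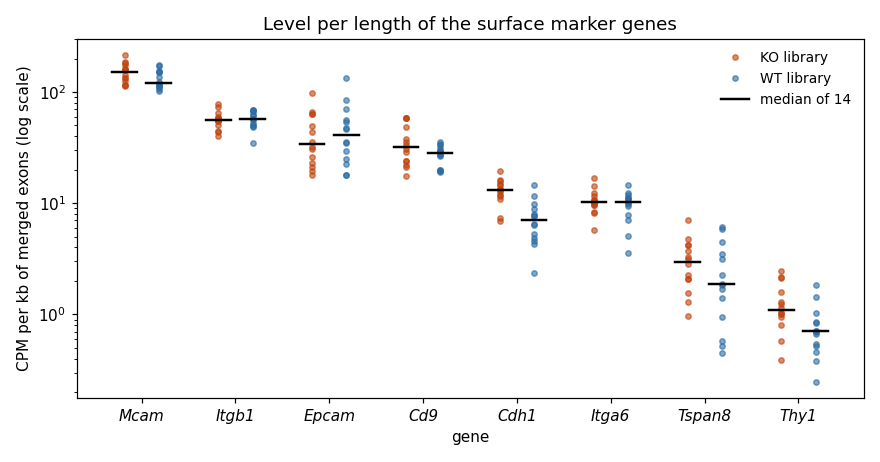
CPM per kb of merged exons (log scale) of each gene in the 14 KO and 14 WT libraries (points), with the median of each set as a bar and the genes in falling order of level. Mcam stands at the top, Tspan8 and Thy1 at the bottom, and the Cdh1 libraries averaged 13.02 CPM per kb in KO against 7.35 in WT.

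Positions are those of the GENCODE annotation of GRCm38. Thy1 (chr9:44043384-44048579) and Mcam (chr9:44134469-44142727) share chromosome 9, and Cdh1 (chr8:106603351-106670246) and Itgb1 (chr8:128685654-128733200) share chromosome 8, all on the plus strand. Itga6 (chr2:71745616-71858416), Tspan8 (chr10:115816832-115849893) and Epcam (chr17:87635979-87651129) are also on the plus strand, and Cd9 (chr6:125460266-125494791) is on the minus strand. Exons of a neighbour on the opposite strand cover 10.67% of the merged exons of Cd9 (Gm26728), 0.51% of those of Mcam and 0.24% of those of Tspan8. The sources used here do not say whether counting used strand, and reads in these stretches cannot be assigned to a strand.

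The promoters of the 3 genes with the clearest changes over time and a RefSeq entry are shown, because Epcam, Tspan8 and Cd9 moved in different directions after retinoic acid. Each run is the 250 bases before the RefSeq start on the gene's own strand, from RefSeq promoters of GRCm38.p6, which held 5 of the 8 genes. That start is not always the outermost GENCODE one given above: the Tspan8 run lies inside the GENCODE gene, and the Cd9 run overlaps its GENCODE end. Epcam is shown at chr17:87635729-87635978, Tspan8 at chr10:115817034-115817283 and Cd9 (minus strand) at chr6:125494761-125495010. Capitals mark matches, on either strand, to AGGTCA (the half-site of retinoic acid receptors), CNCCTCAG (a motif associated with STRA8), GGGCGG (the GC box) or TATAAA (the TATA box).
Epcam: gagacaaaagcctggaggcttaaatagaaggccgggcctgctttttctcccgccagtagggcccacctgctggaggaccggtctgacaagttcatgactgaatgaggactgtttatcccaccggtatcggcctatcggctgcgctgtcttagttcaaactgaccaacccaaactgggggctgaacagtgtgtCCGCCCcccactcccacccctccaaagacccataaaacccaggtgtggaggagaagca
Tspan8: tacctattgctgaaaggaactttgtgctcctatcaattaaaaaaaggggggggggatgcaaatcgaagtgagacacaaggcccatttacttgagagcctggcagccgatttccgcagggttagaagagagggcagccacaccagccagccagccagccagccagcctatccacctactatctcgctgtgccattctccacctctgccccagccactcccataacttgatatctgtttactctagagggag
Cd9: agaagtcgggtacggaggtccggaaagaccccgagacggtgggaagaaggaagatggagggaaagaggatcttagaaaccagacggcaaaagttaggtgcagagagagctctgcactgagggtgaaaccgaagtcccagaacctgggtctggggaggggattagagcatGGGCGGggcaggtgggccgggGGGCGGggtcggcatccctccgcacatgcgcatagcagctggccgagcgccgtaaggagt
GGGCGG matched at 58 bases before the start of Epcam and at 81 and 60 bases before that of Cd9, and none of the 4 motifs matched in the Tspan8 run. CpG dinucleotides numbered 8 for Epcam, 4 for Tspan8 and 16 for Cd9, against a median of 6 over all promoters of that length. AGGTCA matched in none of the 5 promoters held, and 14.02% of all 32851 promoters contain it. CNCCTCAG (6.42% of all promoters) matched once, 224 bases before the start of Itgb1. GGGCGG (32.74% of all promoters) matched in Cd9, Itgb1, Mcam and Epcam. TATAAA (12.37% of all promoters) matched in none of the 5. The E-box CANNTG (66.22% of all promoters) was also searched and is not in capitals. It matched 3 times in Cd9, 2 times in Epcam, 1 time in Mcam and 0 times in Tspan8 and Itgb1. A match or its absence in this window says nothing of binding.

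Which of these genes changed in each genotype after retinoic acid was asked by setting each later time against 0 h, with edgeR's quasi-likelihood test over all genes and a Benjamini-Hochberg adjusted p under 0.05. Epcam rose and Tspan8 fell in both genotypes. Cdh1, Itga6 and Thy1 fell late in WT, Cd9 fell at 48 h in WT, Cd9 and Itgb1 rose early in KO, and Mcam passed no test.

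**Figure D3:**
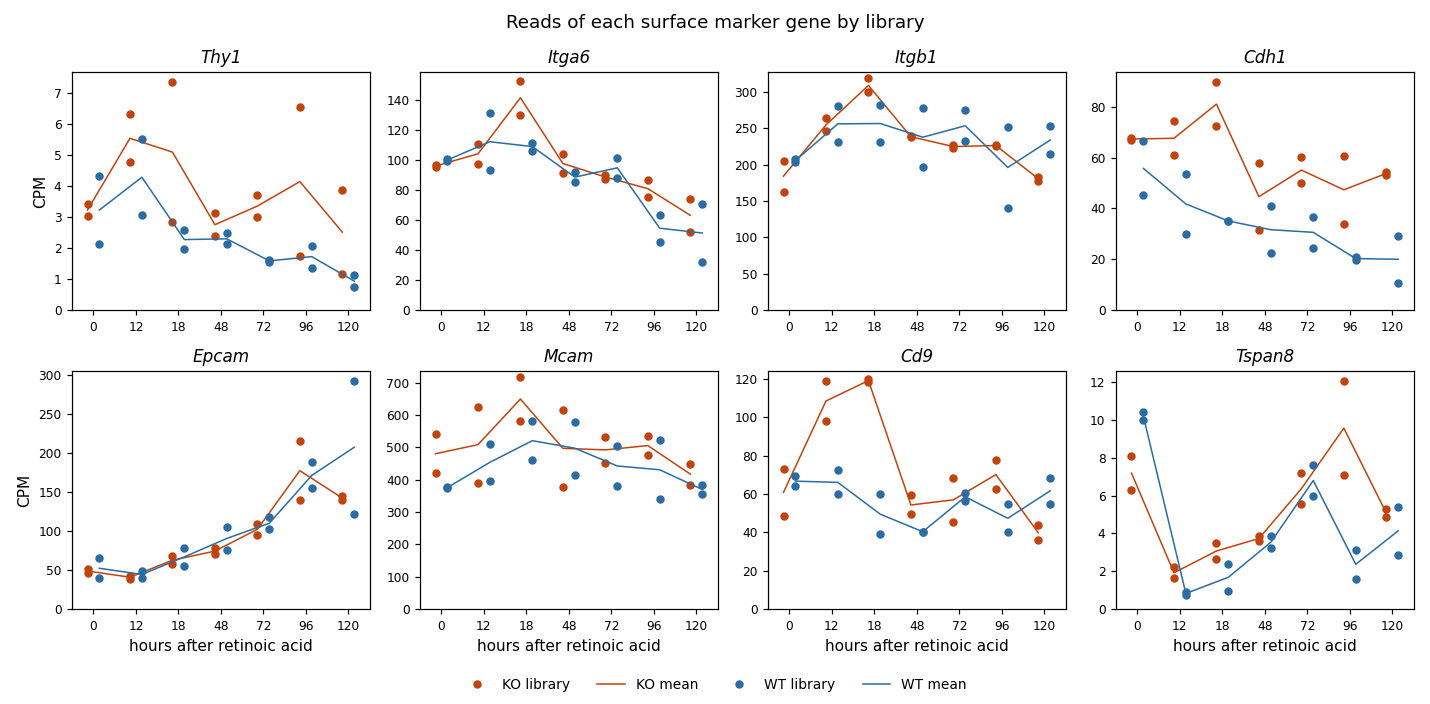
CPM of each gene in each library (points, KO left of WT) against hours after retinoic acid, with lines through the group means and the y axis from 0. Epcam climbs in both genotypes, Tspan8 drops at 12 h in both, and Cdh1 lies higher in KO.

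Epcam, the epithelial adhesion gene, had 51.0 and 46.5 CPM (0 h) in KO, then 39.0 and 42.6 (12 h), 67.9 and 57.1 (18 h), 70.6 and 77.8 (48 h), 109 and 95.4 (72 h), 139.8 and 214 (96 h), and 144 and 139.6 (120 h). In WT it had 39.6 and 64.8 CPM (0 h), 39.2 and 49.4 (12 h), 55.0 and 78.7 (18 h), 76.1 and 105 (48 h), 117 and 102 (72 h), 188 and 154 (96 h), and 122 and 292 (120 h). From 48 h on, each library of either genotype lay above both libraries of its own genotype at 0 h. In KO the log2 change from 0 h was 1.80 ± 0.32 (SE) at 96 h (adjusted p = 0.00663, edgeR) and 1.52 ± 0.32 at 120 h (adjusted p = 0.0211). In WT it was 1.10 ± 0.31 at 72 h (adjusted p = 0.0244), 1.74 ± 0.32 at 96 h (adjusted p = 0.000399) and 2.09 ± 0.32 at 120 h (adjusted p = 6.82e-05). The WT changes at 96 and 120 h passed in all 38 alternative settings tried. Without the 3 shallow KO libraries, when 1 library stood for each late KO group, the KO changes were 1.505 at 96 h (adjusted p = 0.139) and 1.56 at 120 h (adjusted p = 0.127), and the calls were lost. Left out singly, 0 h replicate 1, 0 h replicate 2 or 96 h replicate 2 also ended the KO call at 96 h (log2 1.51 to 1.86, adjusted p 0.103 to 0.136). For KO at 120 h this held for both 0 h, both 120 h and the second 12 h library (log2 1.40 to 1.57, adjusted p 0.0501 to 0.315). The WT call at 72 h was lost with only the compared groups in the fit (log2 1.04, adjusted p = 0.110), and without 0 h replicate 1 or either 72 h library (log2 0.73 to 1.15, adjusted p 0.0720 to 0.357).

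Tspan8, the lower of the tetraspanin genes, had 6.30 and 8.07 CPM (0 h) in KO, then 1.64 and 2.201 (12 h), 3.51 and 2.63 (18 h), 3.58 and 3.89 (48 h), 7.17 and 5.56 (72 h), 7.09 and 12.0 (96 h), and 5.31 and 4.85 (120 h). WT libraries had 10.4 and 9.98 CPM (0 h), 0.887 and 0.767 (12 h), 2.38 and 0.980 (18 h), 3.21 and 3.85 (48 h), 6.00 and 7.59 (72 h), 1.605 and 3.13 (96 h), and 5.42 and 2.86 (120 h). The lowest libraries were those of 12 h in KO and in WT, and every WT library after 0 h lay below both at 0 h. A further set of reads for late KO was recovered from a deposited CPM table and matches neither count library. It gave lower Tspan8 values than both count libraries: 2.46 CPM (72 h), 2.63 (96 h) and 3.89 (120 h). Cdh1, Itgb1 and Mcam also lay below both count libraries at each of these times. Cdh1 had 46.0 CPM (72 h), 30.3 (96 h) and 44.9 (120 h) in the recovered reads. In the alternative named for the recovered reads, they stood in for the shallow replicate 2 of late KO. At 12 h the log2 change of Tspan8 was -1.89 ± 0.46 in KO (adjusted p = 0.0119, edgeR) and -3.58 ± 0.48 in WT (adjusted p = 2.19e-05). In WT it was also past the threshold at 18 h (-2.61 ± 0.43, adjusted p = 0.000239), 48 h (-1.54 ± 0.41, adjusted p = 0.0139), 96 h (-2.11 ± 0.43, adjusted p = 0.000857) and 120 h (-1.20 ± 0.40, adjusted p = 0.0276), but not at 72 h (-0.56 ± 0.39). The WT calls at 12, 18 and 96 h held in all 38 alternatives. Other markers moved at 12 h as well, when 8.44% of all genes passed in KO and 10.8% in WT, in either direction. Of the 12 markers of undifferentiated spermatogonia, 7 fell in KO (median log2 change -1.26) and 10 fell in WT (median -2.30). The peritubular and stromal sum at 12 h was 170 and 142 CPM in KO, against 502 and 373 CPM at 0 h in KO, and 107 and 116 CPM in WT, against 267 and 383 CPM at 0 h in WT. Their part in the Tspan8 fall and in the Cd9 rise was not tested. The KO call at 12 h was lost when any of the 4 KO libraries of 0 and 12 h was left out (log2 -2.08 to -1.68, adjusted p 0.0572 to 0.184). The WT call at 48 h was lost with only the compared groups in the fit (log2 -1.55, adjusted p = 0.0523) and without any of the 4 WT libraries of 0 and 48 h (log2 -1.67 to -1.42, adjusted p 0.0501 to 0.113). That at 120 h was lost with no expression filter (log2 -1.25, adjusted p = 0.0592), with only the compared groups in the fit (log2 -1.29, adjusted p = 0.0543), and without either WT library of 0 h or replicate 2 of 120 h (log2 -1.27 to -0.93, adjusted p 0.0651 to 0.223).

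Cd9, the tetraspanin by which stem cell fractions are enriched, had 48.5 and 73.1 CPM (0 h) in KO, then 98.2 and 119 (12 h), 118 and 120.0 (18 h), 49.3 and 59.2 (48 h), 68.5 and 45.4 (72 h), 77.8 and 62.4 (96 h), and 43.6 and 35.9 (120 h). The WT values were 64.0 and 69.4 CPM (0 h), 72.2 and 59.8 (12 h), 38.9 and 59.9 (18 h), 40.2 and 40.4 (48 h), 56.5 and 60.5 (72 h), 54.7 and 39.9 (96 h), and 68.3 and 55.0 (120 h). The 4 KO libraries of 12 and 18 h were the highest of all 28. In KO, Cd9 rose by a log2 change of 0.87 ± 0.24 at 12 h (adjusted p = 0.0275, edgeR) and 1.04 ± 0.24 at 18 h (adjusted p = 0.00933). In WT the change was -0.02 ± 0.24 at 12 h and -0.49 ± 0.24 at 18 h, and the only WT call was a fall at 48 h (-0.74 ± 0.24, adjusted p = 0.0487). That fall lost its call with only the compared groups in the fit (log2 -0.75, adjusted p = 0.0665), and when any of 12 libraries was left out (both WT of 0 h and of 48 h, the second WT of 12 h, both KO of 12, 18 and 48 h, and the first KO of 120 h; log2 -0.82 to -0.65, adjusted p 0.0536 to 0.204). The KO rise at 12 h was lost without replicate 1 of 0 h or either library of 12 h (log2 0.60 to 0.98, adjusted p 0.0808 to 0.419), and the KO rise at 18 h without replicate 1 of 0 h or of 18 h (log2 0.79 to 1.08, adjusted p 0.0517 to 0.222).

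Cdh1, which encodes E-cadherin, had 66.8 and 67.7 CPM (0 h) in KO, then 60.9 and 74.3 (12 h), 72.3 and 89.8 (18 h), 31.6 and 57.7 (48 h), 60.2 and 50.01 (72 h), 60.8 and 33.9 (96 h), and 53.2 and 54.3 (120 h). In WT it had 66.4 and 45.2 CPM (0 h), 53.5 and 30.0 (12 h), 35.2 and 34.9 (18 h), 41.0 and 22.3 (48 h), 36.8 and 24.4 (72 h), 21.0 and 19.6 (96 h), and 29.2 and 10.8 (120 h). At every time but 48 h, both KO libraries lay above both WT libraries, and from 18 h on all WT libraries lay below both at 0 h. Cdh1 fell in WT by a log2 change of -1.43 ± 0.42 at 96 h (adjusted p = 0.0155, edgeR) and -1.38 ± 0.41 at 120 h (adjusted p = 0.0167). With the count table as a replicate block within each genotype, the WT falls at 48 h (log2 -0.85, adjusted p = 0.0469) and 72 h (log2 -0.84, adjusted p = 0.0492) also passed. In KO the changes from 0 h were -0.59 to 0.33 and none passed. The WT call at 96 h was lost without replicate 1 of 0 h or either 96 h library (log2 -1.54 to -1.19, adjusted p 0.0597 to 0.120), and that at 120 h without replicate 1 of 0 h or replicate 2 of 120 h (log2 -1.17 to -0.95, adjusted p 0.116 to 0.153). In WT at 120 h, where 29.2% of all genes passed in either direction, 9 of the 12 undifferentiated markers had fallen too (median log2 change -1.51). The part of these markers in the late WT falls was not tested.

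Itga6, the alpha chain of the laminin receptor, had 96.6 and 95.4 CPM (0 h) in KO, then 97.3 and 111 (12 h), 130.2 and 153 (18 h), 91.5 and 104 (48 h), 87.5 and 89.8 (72 h), 75.4 and 86.4 (96 h), and 74.0 and 52.4 (120 h). The corresponding WT values were 99.0 and 101 CPM (0 h), 131 and 93.1 (12 h), 112 and 106 (18 h), 85.0 and 92.1 (48 h), 101 and 88.1 (72 h), 63.6 and 45.5 (96 h), and 70.8 and 32.0 (120 h). The 18 h libraries were the highest in KO, and every library of 96 and 120 h, in either genotype, lay below both of its own 0 h. Itga6 fell in WT by a log2 change of -0.84 ± 0.26 at 96 h (adjusted p = 0.0179, edgeR) and -0.87 ± 0.26 at 120 h (adjusted p = 0.0138). The call at 96 h was lost without replicate 2 of 0 h or of 96 h (log2 -0.84 to -0.70, adjusted p 0.0541 to 0.125), and that at 120 h without replicate 2 of 120 h (log2 -0.52, adjusted p = 0.174). Itgb1, the beta chain, had 163 and 205 CPM (0 h) in KO, then 246 and 263 (12 h), 318 and 299 (18 h), 238 and 239 (48 h), 227 and 222 (72 h), 227 and 225 (96 h), and 178 and 183 (120 h). WT libraries had 203 and 208 CPM (0 h), 281 and 231 (12 h), 231 and 281 (18 h), 197 and 278 (48 h), 274 and 232 (72 h), 251 and 141 (96 h), and 214 and 253 (120 h). The 18 h libraries were the highest in KO, and the widest gap between WT libraries of 1 time was 251 against 141 CPM, at 96 h. In KO the log2 change at 18 h was 0.81 ± 0.22 (adjusted p = 0.0204), lost without replicate 1 of 0 h or either 18 h library (log2 0.67 to 0.89, adjusted p 0.0646 to 0.257). In WT the Itgb1 changes from 0 h were -0.04 to 0.33 on the log2 scale, with no call.

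Of the immunoglobulin-family genes, Thy1 had 3.05 and 3.42 CPM (0 h) in KO, then 4.77 and 6.33 (12 h), 7.36 and 2.85 (18 h), 3.13 and 2.39 (48 h), 3.02 and 3.71 (72 h), 1.74 and 6.56 (96 h), and 1.16 and 3.88 (120 h). In WT it had 4.34 and 2.13 CPM (0 h), 5.52 and 3.07 (12 h), 1.99 and 2.57 (18 h), 2.48 and 2.13 (48 h), 1.56 and 1.63 (72 h), 1.38 and 2.08 (96 h), and 1.13 and 0.746 (120 h). The lowest WT libraries were those of 120 h, while the KO libraries of 120 h lay on both sides of those of 0 h. The log2 change of Thy1 at 120 h in WT was -1.68 ± 0.60 (adjusted p = 0.0380, edgeR). The call was lost in DESeq2 (log2 -1.76, adjusted p = 0.0517) and without replicate 1 of 0 h or either 120 h library (log2 -2.06 to -1.14, adjusted p 0.0672 to 0.341). Mcam ranged from 378 to 718 CPM in KO and from 339.5 to 581 CPM in WT. Its log2 changes from 0 h were -0.22 to 0.49 in KO and 0.08 to 0.42 in WT, each with an SE near 0.27, and none passed.

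Against 0 h, the count of the 8 genes past the threshold was 2 in KO at 12 h (8.44% of all 17519 genes passed), 2 at 18 h (8.91%), 0 at 48 h (4.61%), 0 at 72 h (0.434%), 1 at 96 h (1.70%) and 1 at 120 h (0.885%). In WT it was 1 at 12 h (10.8% of all genes), 1 at 18 h (11.7%), 2 at 48 h (12.7%), 1 at 72 h (12.7%), 4 at 96 h (26.7%) and 5 at 120 h (29.2%). At 120 h the 5 WT calls were 4 falls (Tspan8, Itga6, Cdh1 and Thy1) and 1 rise (Epcam), and the median log2 change of the 8 genes was -0.44, against -0.02 over all genes. For KO at 48 and 72 h, where edgeR called none, 1 gene at each time had an unadjusted p under 0.05 (3373 and 2300 of all genes) and DESeq2 called none. Tested over all later times at once, 4 of the 8 genes changed in KO, where 15.6% of all genes did. These were Cd9 (adjusted p = 0.000423, edgeR), Epcam (adjusted p = 0.000562), Tspan8 (adjusted p = 0.0204) and Itga6 (adjusted p = 0.0424). Itgb1 missed the KO threshold (adjusted p = 0.0578) and passed it in 21 of 38 alternatives. In WT 3 of 8 changed, where 37.7% of all genes did: Tspan8 (adjusted p = 1.83e-05), Epcam (adjusted p = 1.84e-05) and Itga6 (adjusted p = 0.00709). Cdh1 missed the WT threshold (adjusted p = 0.0675) and passed it with the replicate block within genotype (adjusted p = 0.00333). Without the 3 shallow KO libraries, the KO count fell to 2, Cd9 and Epcam. The KO call of Itga6 was also lost with library totals as the scaling (adjusted p = 0.0591), and that of Tspan8 with the recovered reads for late KO (adjusted p = 0.149). The call of Itga6 was lost without either 18 h library or replicate 2 of 120 h (adjusted p 0.0720 to 0.154), and that of Tspan8 without either 12 h library, replicate 2 of 0 h or replicate 2 of 18 h (adjusted p 0.0530 to 0.124).

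**Figure D4:**
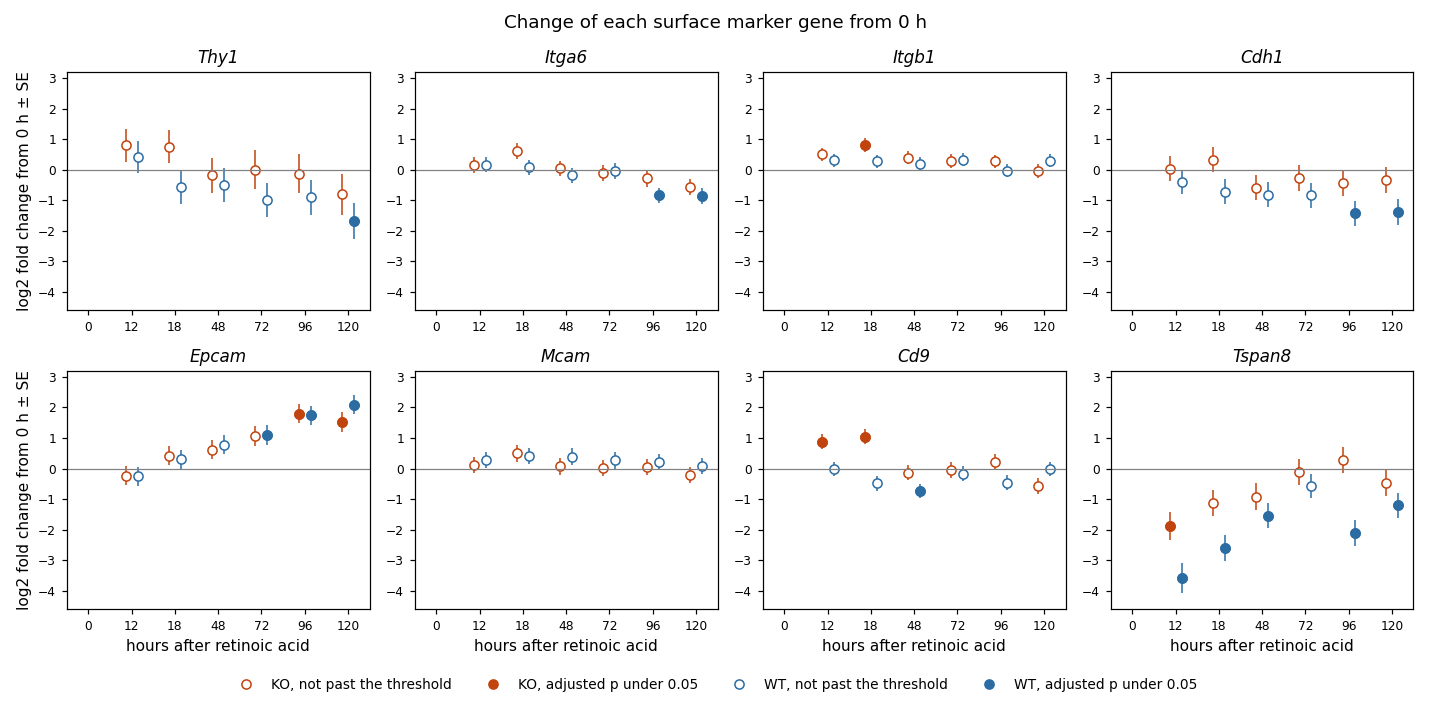
Log2 fold change from 0 h with its SE, for each gene and later time, in KO (left of each pair) and WT; filled points have an adjusted p under 0.05 (edgeR). KO has filled points for Cd9, Itgb1, Epcam and Tspan8, and WT for Thy1, Itga6, Cdh1, Epcam, Cd9 and Tspan8.

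How the genotypes differed was asked over the 7 times together and at each time. Cdh1, Thy1, Tspan8 and Cd9 were higher in KO over the mean of the times, none was lower, and Itga6, Itgb1, Epcam and Mcam passed in neither direction. Of all 17519 genes 37.6% passed the same test, so a count of 4 of 8 stands near the share of all genes. The median log2 difference of the 8 genes was 0.23, against -0.03 over all genes. Cdh1 averaged 59.5 ± 15.2 CPM in KO and 33.6 ± 14.6 CPM in WT (SD, n = 14 each), a log2 difference of 0.86 ± 0.16 or 1.82-fold (adjusted p = 0.000282, edgeR). It passed in all 37 alternatives, at an adjusted p of at most 0.00102, and the log2 difference was 0.95 without the 3 shallow KO libraries. Both KO libraries lay above both WT libraries at 6 of 7 times for Cdh1, and 4.6% of all genes showed this at 6 or more times; this count was chosen after the values were seen.

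Thy1 was 0.62 ± 0.23 higher in KO on the log2 scale (adjusted p = 0.0357, edgeR), Tspan8 0.51 ± 0.17 (adjusted p = 0.0224) and Cd9 0.30 ± 0.09 (adjusted p = 0.0154). Thy1 lost its call without the 3 shallow KO libraries (log2 0.43, adjusted p = 0.131) and when any of 13 of the 28 libraries was left out (log2 0.48 to 0.62, adjusted p 0.0505 to 0.111). These were KO replicate 1 of 18, 48 and 72 h, KO replicate 2 of 0, 12, 96 and 120 h, WT replicate 1 of 18 and 96 h, and WT replicate 2 of 0, 12, 48 and 120 h. Tspan8 lost it with no expression filter (log2 0.52, adjusted p = 0.0512), with the recovered reads for late KO (log2 0.35, adjusted p = 0.153), and without KO replicate 1 of 18, 72 or 120 h (log2 0.45 to 0.47, adjusted p 0.0585 to 0.0698). Cd9 lost it without KO replicate 1 of 72 or 120 h or KO replicate 2 of 0 h (log2 0.22 to 0.24, adjusted p 0.0515 to 0.0757). The remaining differences were 0.17 ± 0.10 for Mcam (adjusted p = 0.189), 0.13 ± 0.10 for Itga6 (adjusted p = 0.296), -0.06 ± 0.08 for Itgb1 (adjusted p = 0.562) and -0.20 ± 0.12 for Epcam (adjusted p = 0.186). Without WT replicate 1 of 120 h alone, Itga6 (log2 0.23, adjusted p = 0.0248) and Epcam (log2 -0.27, adjusted p = 0.0269) passed. The Sertoli marker sum had a median of 178 CPM in KO and 87.8 CPM in WT libraries, and the peritubular and stromal sum 267 CPM in KO and 136 CPM in WT; their part in these genotype differences was not tested. The 12 markers of undifferentiated spermatogonia summed to a median of 1239 CPM in KO and 736 CPM in WT libraries, with 9 higher and 0 lower in KO over the mean of the times (median log2 difference 0.70). The 8 markers of differentiating spermatogonia summed to a median of 1483 CPM in KO and 1630.5 CPM in WT, with 3 higher and 3 lower. Stra8, the gene knocked out, is among these 8 and among those lower (log2 -4.36 ± 0.39, adjusted p = 1.25e-06, edgeR). That call and part of the lower KO sum are therefore set by the genotype itself. At 12 h Stra8 had 30.7 and 25.9 CPM in KO and 712 and 1042 CPM in WT. The part of these shares in the differences of Cdh1, Thy1, Tspan8 and Cd9 was not tested.

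**Figure D5:**
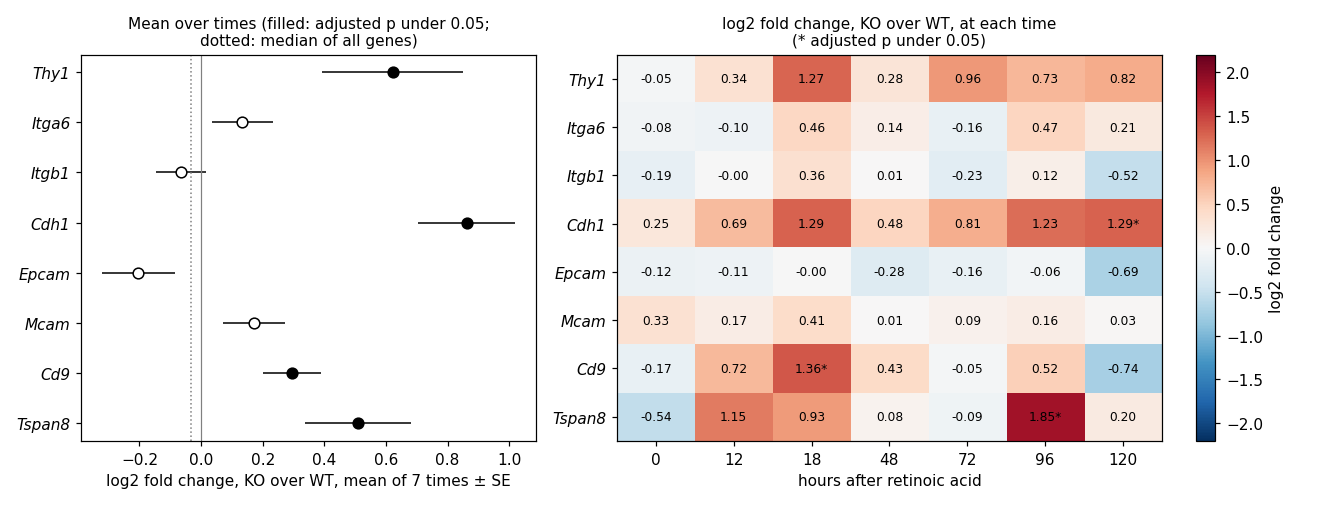
Left, the log2 fold change of KO over WT averaged over the 7 times with its SE, filled where the adjusted p was under 0.05, with the median of all genes dotted. Right, the log2 fold change at each time as colour and number, a star marking an adjusted p under 0.05: Cd9 at 18 h, Tspan8 at 96 h and Cdh1 at 120 h.

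At single times, 3 of the 56 comparisons of KO with WT passed. Cd9 at 18 h had 118 and 120.0 CPM in KO, against 38.9 and 59.9 CPM in WT, a log2 difference of 1.36 ± 0.24 (adjusted p = 0.00159, edgeR). This was lost without WT replicate 1 of 18 h alone (log2 1.07, adjusted p = 0.0806). Tspan8 at 96 h had 7.09 and 12.0 CPM in KO, against 1.605 and 3.13 CPM in WT, a log2 difference of 1.85 ± 0.46 (adjusted p = 0.0249). Its higher KO value came from a shallow library. The recovered reads for KO at 96 h, which match neither count library, gave 2.63 CPM. With those reads the log2 difference was 1.11 and the call was lost (adjusted p = 0.211, edgeR). It was also lost without the 3 shallow libraries (log2 1.61, adjusted p = 0.0724), with only the compared groups in the fit (log2 1.91, adjusted p = 0.351), and without either KO or the first WT library of 96 h (log2 1.42 to 2.26, adjusted p 0.0686 to 0.186). Cdh1 at 120 h had 53.2 and 54.3 CPM in KO, against 29.2 and 10.8 CPM in WT, a log2 difference of 1.29 ± 0.43 (adjusted p = 0.0469). That call was lost without the 3 shallow libraries (log2 1.38, adjusted p = 0.0683), with only the compared groups in the fit (log2 1.36, adjusted p = 0.109), and when any of 11 libraries was left out (KO of 0, 18 and 120 h, both; KO replicate 2 of 12 h; WT of 96 h, both; WT replicate 2 of 18 and 120 h; log2 0.81 to 1.38, adjusted p 0.0504 to 0.306).

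By time, the share of all genes past the threshold was 0% at 0 h, 1.18% at 12 h, 4.1% at 18 h, 0.274% at 48 h, 4.57% at 72 h, 4.41% at 96 h and 15.9% at 120 h, and the 8 genes had 0, 0, 1, 0, 0, 1 and 1 calls. Where edgeR called none, the genes with an unadjusted p under 0.05 numbered 0 at 0 h, 2 at 12 h, 0 at 48 h and 0 at 72 h, and DESeq2 called none; over all genes these unadjusted counts were 1181, 2183, 1464 and 3710. Cdh1 differed by 1.29 ± 0.41 at 18 h (adjusted p = 0.0889) and 1.23 ± 0.43 at 96 h (adjusted p = 0.111), and Cd9 by -0.74 ± 0.26 at 120 h (adjusted p = 0.0526). With the replicate block within genotype these 3 also passed (adjusted p 0.00936, 0.0152 and 0.0426), which made 6 calls of 56. At 0 h, before retinoic acid, the 8 log2 differences lay between -0.54 ± 0.40 (Tspan8) and 0.33 ± 0.27 (Mcam). At 120 h the sums of the peritubular and stromal markers, of the Sertoli markers (288 and 223 CPM in KO, 96.1 and 126 CPM in WT) and of the undifferentiated markers (1332 and 1280 CPM in KO, 719 and 451 CPM in WT) were higher in both KO libraries than in both WT libraries. Their part in the Cdh1 difference was not tested.

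Whether the change over time differed between KO and WT was tested with a genotype by time interaction, which 0 of the 8 genes passed in edgeR and 0.097% of all genes did. By unadjusted p under 0.05 there were Cd9 and Tspan8 among the 8, and 1699 of all genes. Cd9 had an adjusted p of 0.0665, which was 0.0207 with the replicate block within genotype and 0.000307 in DESeq2, where it was the only one of the 8 called. At 18 h alone, a contrast added after the values were seen, the Cd9 change from 0 h was 1.53 ± 0.34 higher in KO than in WT on the log2 scale (adjusted p = 0.0523, edgeR; 0.342% of all genes passed). The adjusted p of that contrast was 0.0209 with the replicate block within genotype. For Tspan8 the interaction had an adjusted p of 0.356, so the smaller KO fall at 12 h is not shown to differ from the WT fall. For the other 6 genes the adjusted p was 0.698 to 1.

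Genes that work with these proteins were counted by family, from lists chosen with earlier results of these data known. The shares of all genes against which each count below is to be read are 37.6% for KO against WT over the mean of the times, 15.6% for any change over time in KO and 37.7% for any change in WT. Of 22 integrin subunits tested, 4 were higher and 2 lower in KO over the mean of the times, with a median log2 difference of 0.15. Itga9 (1.69 ± 0.14, adjusted p = 8.07e-09, edgeR), the alpha-9 chain, averaged 36.2 CPM in KO and 12.5 CPM in WT. Itgae was higher (0.57 ± 0.15), and Itgav (-0.56 ± 0.13) and Itga5 (-0.42 ± 0.16), the alpha chains of RGD-binding receptors, were lower. Over time 7 of 22 changed in KO and 11 of 22 in WT; Itga7, another laminin receptor chain, rose at 12 h by 2.00 ± 0.30 in KO and 1.94 ± 0.29 in WT. Of 15 integrin adaptors tested, 1 was higher and 7 lower in KO, with a median of -0.21. Src, a kinase downstream of integrins, was higher (0.87 ± 0.09, adjusted p = 3.14e-07), and Parva (-0.55 ± 0.17), Lims1 (-0.45 ± 0.08) and Vcl (-0.44 ± 0.10), which link integrins to actin, were lower. In these adaptors 1 of 15 changed over time in KO and 5 of 15 in WT.

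Of 12 laminin chains and nidogens, the matrix that ITGA6 and ITGB1 bind, 4 were higher and 0 lower in KO, with a median of 0.21. Lamb1 averaged 822 ± 386.5 CPM in KO and 303 ± 189 CPM in WT (SD, n = 14 each), a log2 difference of 1.51 ± 0.10 (adjusted p = 1.87e-10, edgeR). Lama1 (0.54 ± 0.16), Lamc1 (0.43 ± 0.10) and Nid2 (0.39 ± 0.09) were the others. Nid2 rose at 12 h by 1.74 ± 0.24 in KO and 1.75 ± 0.24 in WT, and 6 of 12 changed over time in KO and 7 of 12 in WT. Among 19 cadherins and catenins, 6 were higher, Cdh1 included, and 4 lower in KO, with a median of 0.18. Cdh4 (0.59 ± 0.13) and the alpha-catenin Ctnna2 (0.50 ± 0.16) were higher and Cdh24 (-0.62 ± 0.12) was lower. In WT, where Cdh1 fell, Cdh2 (N-cadherin) averaged 84.1 ± 3.58 CPM at 120 h and 17.9 ± 6.34 CPM at 0 h (SD, n = 2 each), a log2 change of 2.33 ± 0.28 (adjusted p = 3.56e-06). Jup, the plakoglobin gene, rose in WT by 1.71 ± 0.31 at 96 h, and Ctnnb1, beta-catenin, rose in KO by 0.64 ± 0.17 at 12 h. Others fell: Cdh5 (-1.998 ± 0.408) and Ctnna2 (-1.61 ± 0.43) in WT at 96 h, and Ctnnd2 (-1.07 ± 0.27) in KO at 18 h. Cdh5 is also among the endothelial markers. Of the 19 genes, 5 changed over time in KO and 10 in WT. In WT at 120 h, 4 of the 19 had risen and 5, Cdh1 included, had fallen.

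Of 16 genes of the EpCAM family, claudins and other epithelial genes, 7 were higher and 1 lower in KO, with a median of 0.20. Cldn3, a claudin of tight junctions, was the most changed (1.58 ± 0.27, adjusted p = 8.64e-05, edgeR), at 7.87 CPM in KO and 3.34 CPM in WT. Ocln (0.48 ± 0.11) and Spint1 (0.47 ± 0.09) were higher and Tjp3 (-0.65 ± 0.20) was lower. Over time 9 of 16 changed in KO and 12 of 16 in WT. Tjp3 rose in WT (2.64 ± 0.50 at 120 h). Among 24 immunoglobulin-family adhesion genes, the family of Thy1 and Mcam, 7 were higher and 3 lower in KO, with a median of 0.14. The nectin gene listed as Pvrl1 (0.91 ± 0.14), the junctional adhesion gene F11r (0.75 ± 0.09), Pecam1 (0.63 ± 0.17) and Pvrl2 (0.61 ± 0.17) were higher. Pecam1 is also an endothelial marker, and the endothelial marker sum had a median of 43.3 CPM in KO and 40.9 CPM in WT; its part in that difference was not tested. In this family 3 of 24 changed over time in KO and 13 of 24 in WT.

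Of 24 tetraspanins tested, Cd9 and Tspan8 included, 9 were higher and 2 lower in KO, with a median of 0.10. Tspan5 (0.54 ± 0.11) and Tspan9 (0.51 ± 0.10) were higher, and Cd82 (-0.56 ± 0.15) was lower. Cd63, a tetraspanin of late endosomes, rose in KO by 2.10 ± 0.51 at 48 h (adjusted p = 0.0236, edgeR) and in WT by 2.70 ± 0.50 at 120 h (adjusted p = 0.000589). Over time 6 of 24 changed in KO and 15 of 24 in WT. Of 7 genes listed as partners of tetraspanins, 4 were higher and 1 lower in KO, with a median of 0.31. The list may hold genes that are not partners, so these are counts of listed genes. Igsf8, a direct partner of CD9, was higher (0.83 ± 0.11, adjusted p = 9.65e-06), and so was Ptgfrn, another partner (0.32 ± 0.12). Adam10, a protease carried by tetraspanins, was lower (-0.44 ± 0.09). Of these 7, 2 changed over time in KO and 7 in WT, where 15.6% and 37.7% of all genes did.

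Of 8 other surface receptors of spermatogonia, 3 were higher and 2 lower in KO, with a median of 0.46. Cd24a (1.55 ± 0.14, adjusted p = 3.70e-08, edgeR), a lipid-anchored mucin-like protein, averaged 29.6 ± 11.1 CPM in KO and 11.7 ± 8.24 CPM in WT (SD, n = 14 each). Sdc4 (0.85 ± 0.10), a heparan sulfate proteoglycan, and Gfra1 (0.30 ± 0.11), the GDNF co-receptor of stem cells, were higher, and Kit (-0.45 ± 0.13) was lower; Gfra1 and Kit are also among the undifferentiated and differentiating markers above. Ret, the signalling partner of GFRA1, changed by -1.80 ± 0.38 on the log2 scale at 12 h in KO and by -1.93 ± 0.38 at 18 h in WT. In this list 4 of 8 changed over time in KO and 6 of 8 in WT. Sdc4 changed by -1.49 ± 0.26 in KO and -2.62 ± 0.27 in WT at 18 h.

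As a description across the 14 group means of log2(CPM + 1), which share their libraries and depths, Thy1 and Cdh1 were the most alike of the 28 pairs (Pearson r = 0.845) and Itga6 and Epcam the most opposed (r = -0.806). Among the genes most like Cdh1 in the whole table were Pde9a (r = 0.980) and Srgap1 (0.966). Epcam was most like Syngr2 (0.971), Gpatch1 (0.967) and Rhox13 (0.962), a germ cell homeobox gene. Tspan8 was most like Maml3 (0.918), Bcl6 (0.913) and Arid5b (0.906), and Cd9 was most like Rnf24 (0.879), Rpa3 (0.859) and Spcs1 (0.851). Itga6 followed Ugcg (0.956), Mfsd1 (0.952) and Slc9b1 (0.943), while Itgb1 followed Rab6a (0.930), Zranb2 (0.926) and Aebp2 (0.923). Thy1 followed Entpd3 (0.943), Txndc5 (0.942) and Siah2 (0.941), and Mcam followed Slc3a2 (0.933), Nnat (0.912) and Ndufc2 (0.893). Itga6 and Itgb1, the chains of 1 receptor, were not among each other's nearest genes (r = 0.614).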

How the data were processed

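RNA of sorted germ cells was sequenced on the Ion Proton, per the labels; Bowtie, TopHat, Cufflinks and the mm10 genome are named in the submitters' processing notes, while neither the counting program nor a strand setting is stated in those sources. What the authors deposited are 2 tables of raw read counts per gene, each with 1 library of every group (replicates 1 and 2 here), and 2 tables whose values, also deposited by the authors, are CPM: 25 of 28 columns match a count column within 0.001 CPM, WT columns the same-numbered and KO columns the other-numbered table. The KO columns of 72, 96 and 120 h in the first CPM table match none. Of their lower non-zero values, the only ones checked, 100% are whole reads within 0.1 read. These recovered reads total 4479729, 4190650 and 4122223, against 1079696, 914126 and 1031189 in the shallow KO libraries of the same times.

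Date-like names (27) were left out, and CPM is the count over the library total. Rows outside genes, deposited for the 7 WT libraries of the first table, stayed out of totals and tests (27.08% to 33.1% of the counted reads without a feature and 14.29% to 16.23% not unique). edgeR 4.0.16 (R 4.3.3; TMM, filterByExpr, 14 group means over all 28 libraries, robust quasi-likelihood test) tested 17519 genes with Benjamini-Hochberg adjustment, tested beforehand on simulated data; a call is an adjusted p under 0.05. DESeq2 1.42.0, other scalings, no filter, blocks, and leaving out libraries were alternatives. The single-time interaction at 18 h was added after the data were examined. Replicate numbers pair the WT libraries: deviations from group means correlated above 0.1 in 21 of 21 WT pairs (0.22 to 0.569), but in 9 of 21 KO pairs and 3 of 49 pairs of KO with WT. Named genes are the 8 surface genes, Stra8 and Kit as checks, the 3 genes most like each of the 8 (Pearson r, mean of at least 5 CPM), and, per list, up to 4 called genes with at least 5 CPM by largest log2 change, for KO against WT over the mean and for any change in WT or in KO; some of these are summarised by counts only, and 2 are not reported here. Members and lists were chosen with earlier results of these data known.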

Additional observations from a re-analysis of the deposited data

Results flagged for a closer look

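For Cdh1 and for Cd9, both KO libraries of 18 h lay above both KO libraries of 0 h, and both WT libraries of 18 h lay below both WT libraries of 0 h. For Cdh1 the KO libraries of 18 h had 72.3 and 89.8 CPM, against 66.8 and 67.7 CPM at 0 h, and the WT libraries of 18 h had 35.2 and 34.9 CPM, against 66.4 and 45.2 CPM at 0 h. The log2 change was 1.04 ± 0.57 (SE) higher in KO than in WT, and the test of this difference, chosen after the values were seen, had an adjusted p of 0.646 (edgeR) and passed in 0 of 37 alternatives.

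For Cd9 the KO libraries of 18 h had 118 and 120.0 CPM, against 48.5 and 73.1 CPM at 0 h, and the WT libraries of 18 h had 38.9 and 59.9 CPM, against 64.0 and 69.4 CPM at 0 h. The log2 change was 1.53 ± 0.34 higher in KO (adjusted p = 0.0523, edgeR). It passed in 18 of 37 alternatives, among them DESeq2 (adjusted p = 0.00656), and the adjusted p over all of them ranged from 0.00637 to 0.385.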

How the results depend on the processing

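The 3 calls of KO against WT at single times became 6 with no expression filter, 5 with the replicate block, 6 with the replicate block within genotype and 1 without the 3 shallow KO libraries. The 6 KO calls against 0 h became 10 with only the compared groups in the fit. Genes changed at any time in KO numbered 4, and 2 without the shallow libraries; in WT they numbered 3, and 5 with no filter, without the shallow libraries or with recovered reads. The interaction count of 0 became 1 (Cd9) with no filter, in DESeq2, with the replicate block and with the replicate block within genotype. Beside the calls given with the results and Itgb1 in KO at any time (adjusted p = 0.0341), the block within genotype changed no other call of the 8 genes.

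Leaving out 1 library at a time, where a group of 1 is assumed to vary like the others, gave 1 to 6 calls for the mean of KO against WT, 1 to 7 at single times, 0 to 7 in KO and 7 to 14 in WT against 0 h, 2 to 5 in KO and 3 to 5 in WT for any change, and 0 to 1 for the interaction. Signs of KO against WT were followed for the mean and, at single times, only for differences called in the main fit or in an alternative. Among these, the log2 difference turned sign in the repeats for Itgb1 over the mean (-0.11 to 0.011) and for 2 differences at 120 h. These were Itga6 (-0.19, and -0.17 without KO replicate 1 of 120 h, to 0.89) and Epcam (-1.18 to 0.15). Scaling by library totals moved all log2 differences by 0.15 for KO against WT at 120 h and by -0.101 for WT at 120 h against 0 h. Fitting only the compared groups gives no separate value for the mean and the interaction. Thy1 rests on 4 to 56 reads per library, the fewest with Tspan8 among the 8 genes.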
